A study of Homo sapiens with 3 samples.

Results

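The genes described here are TP63 and TP73, MDM2 and MDM4, and the p53 target genes SFN, GDF15, BBC3, BAX and ZMAT3, in untreated MCF10A cells. They were found by their gene symbols, through the Ensembl identifiers that GENCODE release 44 pairs with them, and all 9 were present among the 62754 genes measured. MCF10A is an immortalised line of breast epithelium that does not form tumours. Per the labels, the cells had been transduced with an inducible retroviral expression vector that carried no insert, selected with puromycin and harvested without doxycycline and without other treatment. RNA-seq was done on 3 replicates of this 1 group, so no condition could be compared with another. All values are therefore levels in untreated cells, and the errors are the spread between 3 replicates of 1 line, for which the labels do not say whether the cultures were separate.

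TP63 and TP73 encode the proteins p63 and p73, which bind DNA sites of the same kind as p53 does. In breast and skin, p63 is a defining factor of basal epithelial cells. MDM2 is a ubiquitin ligase that marks p53 for degradation, and its gene is itself switched on by p53, which closes a feedback loop. MDM4 is a relative of MDM2 that binds p53 and represses it. The remaining members are genes that p53 can activate: SFN encodes 14-3-3 sigma, a brake on entry into mitosis that epithelial cells make, BAX and BBC3 (PUMA) act in cell death through mitochondria, ZMAT3 encodes an RNA-binding zinc finger protein, and GDF15 encodes a secreted stress cytokine.

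Levels are given as TPM, the read number per base of transcript, scaled to a sum of 1000000 over all genes of a replicate. With the lengths of GENCODE 44 the deposited values came back as whole reads, 15273329, 15446347 and 11166546 in replicates 1, 2 and 3, if the smallest step is 1 read. Replicate 3 stood apart, since the short non-coding RNAs RN7SL1 and RMRP held 17.1% of its TPM against 5.44% and 6.32% in replicates 1 and 2, and nuclear protein-coding genes held 73.6% against 85.5% and 84.1%. Markers of basal epithelium were all at or above 1 TPM (8 of 8), led by KRT5 with a mean of 6612 TPM, and their summed TPM ranged from 14826 to 19054. Of the 8 luminal markers 5 had a mean at or above 1 TPM, namely KRT18 with 413, KRT8 with 118, GATA3 with 12.8, MUC1 with 7.25 and FOXA1 with 1.11 TPM, and the summed TPM of that list ranged from 487 to 584. The other luminal markers, ESR1, PGR and KRT19, had at most 3 reads in any replicate. Of the 7 fibroblast markers 2 had a mean at or above 1 TPM, namely DCN with 9.05 and COL1A1 with 4.96 TPM. COL1A2, LUM and PDGFRA had 0 reads in each replicate, and the summed TPM of that list ranged from 13.6 to 14.8. Of the 7 endothelial and immune markers 2 had a mean at or above 1 TPM, namely CD14 with 1.96 and PECAM1 with 1.77 TPM. CDH5 and CD3E had 0 reads in each replicate, and that list summed to 2.72 to 4.96 TPM. A deposited value is for the whole gene, so transcripts from different start sites of 1 gene are added together.

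Some of the members have internal promoters whose products differ. The annotation places 5 protein-coding transcripts of TP63 at its first start and 7 at a start 158 kb downstream, which give the long (TA) and the N-terminally shortened (delta N) forms of p63. TP73 has 4 such groups of starts, and of the 18 protein-coding transcripts of MDM2, 15 begin in a group that starts 825 bases downstream of the first start. The promoter windows of RefSeq (GRCh38.p14), from 250 bases before to 50 bases after a start, covered all 9 members with 15 windows, 4 of them for MDM2 and 3 for TP73. They were searched for the p53 element, meaning 2 adjoining copies of the 10-letter p53 consensus with at most 2 of 20 letters off it. The consensus is its own reverse complement, so that each match counts for both strands. It was present in 3 of the 15 windows, namely both overlapping windows of the internal MDM2 start and the window of an internal TP73 start, and in 0.649% of all 35116 promoter windows. The windows at the first starts of MDM2 and TP73 held no match. The first and the internal window of MDM2 and the internal window of TP73 are printed here because the deposited levels cannot separate what is transcribed from each. Capitals mark the p53 element.
MDM2, first start, chr12:68807927-68808226, plus strand: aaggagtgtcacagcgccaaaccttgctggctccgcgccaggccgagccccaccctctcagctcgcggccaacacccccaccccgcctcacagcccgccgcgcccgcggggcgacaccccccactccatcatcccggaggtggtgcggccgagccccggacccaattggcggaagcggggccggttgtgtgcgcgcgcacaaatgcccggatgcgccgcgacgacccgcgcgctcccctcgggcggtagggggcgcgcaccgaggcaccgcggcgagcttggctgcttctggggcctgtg
MDM2, internal start, chr12:68808767-68809066, plus strand: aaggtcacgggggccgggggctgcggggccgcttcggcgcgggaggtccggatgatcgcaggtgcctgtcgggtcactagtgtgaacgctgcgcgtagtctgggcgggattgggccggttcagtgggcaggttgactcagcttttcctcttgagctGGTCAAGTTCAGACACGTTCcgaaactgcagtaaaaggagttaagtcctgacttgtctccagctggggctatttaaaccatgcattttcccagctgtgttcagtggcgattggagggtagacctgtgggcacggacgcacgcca
TP73, internal start, chr1:3690422-3690721, plus strand: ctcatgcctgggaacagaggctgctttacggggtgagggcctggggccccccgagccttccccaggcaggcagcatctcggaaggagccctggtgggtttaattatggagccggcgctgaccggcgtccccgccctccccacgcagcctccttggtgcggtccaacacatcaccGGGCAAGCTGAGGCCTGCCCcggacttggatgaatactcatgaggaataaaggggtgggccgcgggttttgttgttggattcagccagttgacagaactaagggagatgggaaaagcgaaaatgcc
In the MDM2 window the element began 94 bases before the internal start, and in the TP73 window 76 bases before it. The internal TP73 start lies 38.2 kb into the gene and gives the shortened delta N form of p73. A match of letters is a description and no proof of binding. No window of SFN, GDF15, BBC3, BAX, ZMAT3, MDM4 or TP63 held the element, which says only that these letters were not in these windows. The windows left out the internal start of TP63 and some annotated protein-coding starts of GDF15, BBC3, ZMAT3, MDM4, MDM2 and TP73. The only BBC3 window was set at a start 99 bases from the first annotated start of the gene, with no GENCODE transcript start within 25 bases.

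The promoter window of BAX differed from those of the other members in another motif. The letters CACGTG, an E-box that reads the same on both strands and is bound by MYC and related factors, occurred 4 times in it, once each in the window of BBC3 and in 1 window of TP73, and in no other window of the members. Of all 35116 windows, 7.26% held CACGTG at least once and 5 windows held it at least 4 times. CACGTG was not the only motif counted. TATAAA occurred once each in the windows of GDF15 and TP63, and in 11.5% of all windows. GGGCGG occurred 2 times in the BAX window, and at least 2 times in 26.7% of all windows. The BAX window, which held no p53 element, is shown with CACGTG in capitals.
BAX, chr19:48954625-48954924, plus strand: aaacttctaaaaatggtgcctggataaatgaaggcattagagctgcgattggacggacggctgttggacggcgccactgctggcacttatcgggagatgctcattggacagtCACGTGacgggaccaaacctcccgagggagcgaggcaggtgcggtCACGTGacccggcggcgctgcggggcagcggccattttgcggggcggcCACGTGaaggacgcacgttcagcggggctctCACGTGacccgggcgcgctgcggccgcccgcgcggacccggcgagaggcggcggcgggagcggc

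All 9 members had a mean at or above 1 TPM, the cutoff that the study applied to call a gene expressed, and all 9 were above it in every replicate. Among all genes 24.9% had a mean at or above this cutoff, and among protein-coding genes 56.7%. The means spanned from 4.27 TPM for BBC3 to 1634 TPM for SFN, with a median of 34.1 TPM over the 9 members against 24.9 TPM over the 11360 protein-coding genes at or above 1 TPM. In RNA from many cells, a low level in every cell and a high level in few cells cannot be told apart. From the highest, the order was SFN, MDM2, BAX, TP63, ZMAT3, MDM4, GDF15, TP73 and BBC3. Of the 8 pairs of neighbours in this order, 6 kept the same sign in every replicate with a mean log2 difference larger than its SD. The exceptions were ZMAT3 and MDM4, with a mean log2 difference of 0.05 ± 0.28 (SD, n = 3), and TP73 and BBC3, with 0.18 ± 0.27 (SD, n = 3), which did not differ beyond their spread. A sign-flip test over 3 replicates cannot give a p below 0.25, so none was run on these differences.

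**Figure D1:**
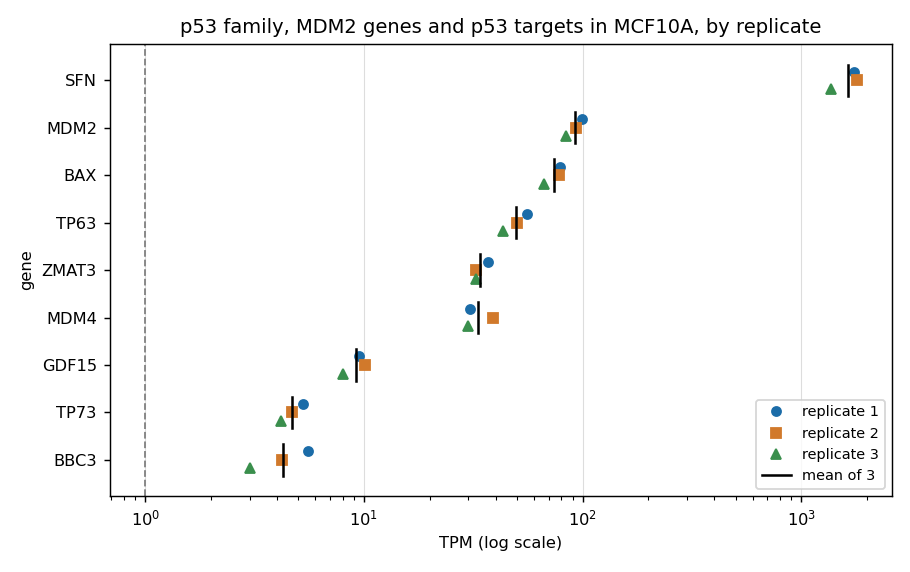
TPM on a log axis of each of the 9 genes in the 3 replicates (blue circles, orange squares and green triangles for replicates 1, 2 and 3), with the mean as a black bar and 1 TPM as a dashed line. SFN stands alone near 1634 TPM, 6 genes from MDM2 to GDF15 lie between 9.22 and 92.3 TPM, and TP73 and BBC3 lie near 4 to 5 TPM, all above 1 TPM.

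TP63 was about an order of magnitude higher than TP73. TP63 (ENSG00000073282, chromosome 3 from 189631389 to 189897276 on the plus strand) was measured at 55.6, 50.2 and 43.4 TPM, counted in the order of the replicates, with 1446, 1342 and 959 reads behind these values. TP73 (ENSG00000078900, chromosome 1 from 3652516 to 3736201, plus strand) was measured at 5.28, 4.67 and 4.18 TPM, from 144, 131 and 97 reads. Both were highest in replicate 1 and lowest in replicate 3, and the groups of values were far from overlapping. The mean was 49.8 ± 6.15 TPM for TP63 and 4.71 ± 0.551 TPM for TP73 (SD, n = 3 each). The ratio of TP63 to TP73 was 10.5, 10.8 and 10.4 in the 3 replicates, a log2 ratio of 3.40 ± 0.03 (SD, n = 3), which was the tightest of the 4 ratios between members. TP63 thus made up 91.4% ± 0.141 (SD, n = 3) of the summed TPM of both genes. Of the protein-coding genes at or above 1 TPM, 70.9% had a lower mean than TP63 and 14.6% a lower mean than TP73. Exons of the antisense gene TP73-AS1 overlap 12.2% of the canonical TP73 transcript on the opposite strand, and the use of strand in counting is not given in the sources used here, so reads from this stretch cannot be told apart. TP73-AS1 itself was listed at 9.67, 11.0 and 8.04 TPM.

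Genes that p63 is known to control in basal epithelium were all at or above 1 TPM (20 of 20), against 56.7% of protein-coding genes. Their median was 197 TPM, against 24.9 TPM over protein-coding genes at or above 1 TPM and 3.75 TPM over all protein-coding genes. The list was chosen with earlier results of these data known, and KRT5, KRT14 and others of it are also in the basal marker list. The genes are thus a chosen set, which also holds the member SFN. Their highest means were those of the keratins KRT5 with 6612 ± 890 TPM and KRT14 with 4144 ± 618 TPM, and of S100A2, a calcium-binding protein, with 5411 ± 391 TPM (SD, n = 3 each). The lowest 2, named after their values were seen, were PKP1, a desmosomal plaque protein, with 1.21 TPM and FRAS1, a basement membrane protein, with 3.08 TPM. All 11 genes of the list of p63 and p73 cofactors and ligases were at or above 1 TPM, from 5.15 to 145 TPM. They were led by YAP1, a transcriptional coactivator that binds p73, with 145 ± 16.0 TPM, the kinase ABL1 with 66.2 ± 9.98 TPM and PPP1R13L (iASPP), an inhibitor of p53 family proteins, with 57.4 ± 9.82 TPM (SD, n = 3 each).

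MDM2 exceeded its relative MDM4 in every replicate. MDM2 (ENSG00000135679, chromosome 12 from 68808177 to 68845544, plus strand) was measured at 99.7, 93.6 and 83.7 TPM, from 3929, 3793 and 2808 reads. MDM4 (ENSG00000198625, chromosome 1 from 204516379 to 204558120, plus strand) was measured at 30.5, 38.8 and 30.1 TPM, from 1612, 2111 and 1354 reads. Replicate 2 was thus the highest for MDM4 while replicate 1 was the highest for MDM2. The means were 92.3 ± 8.05 TPM for MDM2 and 33.1 ± 4.94 TPM for MDM4 (SD, n = 3 each). The ratio of MDM2 to MDM4 was 3.27, 2.41 and 2.78 in replicates 1, 2 and 3, a log2 ratio of 1.49 ± 0.22 (SD, n = 3). MDM2 made up 73.6% ± 2.95 (SD, n = 3) of the summed TPM of both. Of the protein-coding genes at or above 1 TPM, 84.8% had a lower mean than MDM2 and 58.8% a lower mean than MDM4. In the canonical MDM2 transcript, 5.86% of the bases are shared with an annotated pseudogene on the same strand that had 0 reads, and 12.3% lie opposite to exons of CPM and a long non-coding RNA, both under 0.3 TPM in every replicate.

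PPM1D, a phosphatase that p53 induces and that reverses p53 phosphorylation, was measured at 13.6, 12.8 and 11.7 TPM. The ratio of MDM2 to PPM1D was 7.34, 7.33 and 7.15, closer between replicates than that of MDM2 to MDM4. Over the list of 20 regulators of p53 and MDM2, including both MDM genes, 20 of 20 were at or above 1 TPM, against 56.7% of protein-coding genes. Their median was 46.3 TPM. This list was also chosen with earlier results of these data known, so the share describes a chosen set. The highest were RPL5 with 2061 ± 150 TPM, RPL11 with 1021 ± 44.5 TPM and NPM1 with 1862 ± 184 TPM (SD, n = 3 each), a pair of ribosomal proteins and a nucleolar protein that can bind MDM2 besides their main roles in ribosome assembly.

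SFN was by far the highest member. SFN (ENSG00000175793, chromosome 1 from 26863149 to 26864456, plus strand), a gene of 1 exon and 1 annotated transcript, was measured at 1741, 1793 and 1366 TPM, from 11996, 12698 and 8005 reads. Replicates 1 and 2 lay close together and replicate 3 lower, and the mean was 1634 ± 233 TPM (SD, n = 3). SFN ranked 60 among protein-coding genes by its mean and held 84.4%, 85.2% and 83.4% of the summed TPM of the 9 members. It exceeded MDM2, the next member, by a log2 difference of 4.14 ± 0.12 (SD, n = 3), or 17.6-fold. Of all reads, SFN took 0.0785% in replicate 1, with a Wilson interval at 95% of 0.0771% to 0.0800%. In replicate 3 it took 0.0717%, and there the Wilson bounds were 0.0701% and 0.0733%. These intervals cover counting error only, and reads without molecular identifiers are not independent molecules. SFN belongs to the 14-3-3 family, adaptor proteins that bind phosphorylated partners, and all 7 genes of the family were above 100 TPM. SFN was the highest of them in every replicate, and its ratio to the next, YWHAE at 1054 ± 101 TPM (SD, n = 3), was 1.52, 1.68 and 1.44. YWHAZ followed with 710 ± 68.0 TPM (SD, n = 3), and YWHAH was the lowest with 173 TPM. SFN made up 35.4%, 38.1% and 34.2% of the summed TPM of the family, and was lower than the sum of the other 6 by a log2 ratio of -0.84 ± 0.13 (SD, n = 3).

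BAX and BBC3 differed widely in level although both are death genes of the p53 programme. BAX (ENSG00000087088, chromosome 19 from 48954815 to 48961798, plus strand), which opens pores in the outer mitochondrial membrane, was measured at 78.7, 77.9 and 66.3 TPM, from 561, 571 and 402 reads. BBC3 (ENSG00000105327, chromosome 19 from 47220822 to 47232766, minus strand), a BH3-only protein that frees BAX from its inhibitors, was measured at 5.56, 4.21 and 3.03 TPM, from 54, 42 and 25 reads. BAX was similar in replicates 1 and 2 and lower in replicate 3, while the BBC3 values were spread more widely. The means were 74.3 ± 6.96 TPM and 4.27 ± 1.27 TPM (SD, n = 3 each). The ratio of BAX to BBC3 was 14.1, 18.5 and 21.9, a log2 ratio of 4.16 ± 0.32 (SD, n = 3), the widest spread of the 4 planned ratios. With the exact Poisson interval of the reads at 95%, the level of BBC3 was 4.18 to 7.26 TPM in replicate 1, 3.03 to 5.69 TPM in replicate 2 and 1.96 to 4.47 TPM in replicate 3, so that the intervals overlapped.

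Of the 16 genes in the BCL2 family list, 13 were at or above 1 TPM, against 56.7% of protein-coding genes. That share too describes a set chosen with earlier results of these data known. MCL1, an inhibitor of cell death, was the highest with 598 ± 61.6 TPM (SD, n = 3), 8.05-fold above BAX, the second. BCL2L1 (BCL-XL), another inhibitor, followed with 68.1 ± 8.61 TPM (SD, n = 3). BAX exceeded BAK1, the other pore-forming effector, in every replicate, with a log2 ratio of 0.48 ± 0.06 (SD, n = 3), or 1.39-fold. BBC3 was lower than PMAIP1 (NOXA), another BH3-only gene induced by p53, which was measured at 11.5, 11.1 and 8.93 TPM, with a log2 ratio of -1.34 ± 0.26 (SD, n = 3). The 3 genes below 1 TPM, named after their values were seen, were HRK, BMF and BCL2A1, with at most 3 reads in any replicate.

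**Figure D2:**
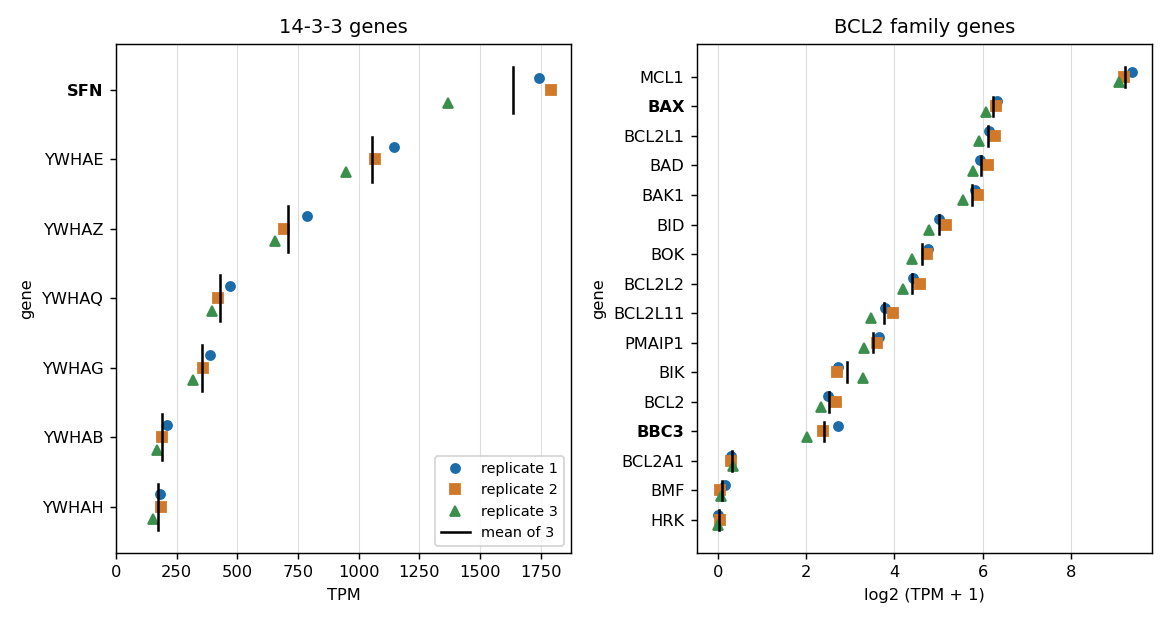
Levels of the 14-3-3 genes (left, TPM from 0) and of the BCL2 family genes (right, log2 of TPM + 1) in the 3 replicates, with the mean as a black bar and the members SFN, BAX and BBC3 in bold. SFN lies above all other 14-3-3 genes in each replicate, BAX is second to MCL1, and BBC3 lies among the lowest genes that are at or above 1 TPM.

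ZMAT3 and GDF15 are targets of other kinds. ZMAT3 (ENSG00000172667, chromosome 3 from 178960121 to 179072215, minus strand) was measured at 37.1, 32.6 and 32.6 TPM, from 1747, 1575 and 1307 reads, with a mean of 34.1 ± 2.61 TPM (SD, n = 3). It was the only member not at its lowest in replicate 3, and its values in replicates 2 and 3 were nearly equal. Among its paralogs ZMAT2, a splicing factor, was higher with 135 ± 16.8 TPM and ZMAT5 lower with 5.86 ± 1.21 TPM (SD, n = 3 each). For ZMAT1 and ZMAT4 no replicate had a read, and a limit of 3 reads corresponds to 0.116 and 0.272 TPM in replicate 3. GDF15 (ENSG00000130513, chromosome 19 from 18374731 to 18389176, plus strand) was measured at 9.52, 10.1 and 8.01 TPM, from only 74, 81 and 53 reads, with a mean of 9.22 ± 1.09 TPM (SD, n = 3). Its replicates lay within the counting error of each other, with exact Poisson intervals from 6.00 to 10.5 TPM in the lowest and from 8.05 to 12.6 TPM in the highest replicate. Of the protein-coding genes at or above 1 TPM, 24.9% had a lower mean than GDF15.

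Most of the listed p53 targets, members included, were above the cutoff. In 4 lists of p53 targets, with 56 genes of which 5 are members, 54 were at or above 1 TPM, or 96.4% against 56.7% of protein-coding genes. At or above 10 TPM were 42 of the 56, or 75.0%, against 41.7% of protein-coding genes. The lists hold genes known from many tissues, including epithelium, so these shares describe a chosen set. Among arrest and checkpoint targets 12 of 13 were at or above 1 TPM, and after SFN the highest were CCNG1 (cyclin G1) with 221 ± 21.2 TPM and GTSE1 with 69.3 ± 16.0 TPM (SD, n = 3 each). GTSE1 is a mitotic gene that restrains p53. RPRM, which encodes an inhibitor of the cell cycle, had 0 reads throughout, and a limit of 3 reads corresponds to 0.470 TPM in replicate 3. Among apoptosis targets 19 of 20 were at or above 1 TPM, led by PERP, a desmosomal protein and joint target of p53 and p63, with 236 ± 17.3 TPM, TP53I3 with 152 ± 5.07 TPM and the death receptor TNFRSF10B with 139 ± 13.3 TPM (SD, n = 3 each). The exception, named after its values were seen, was the decoy receptor TNFRSF10C with 0.232 TPM and at most 3 reads in a replicate. All 16 targets in repair and metabolism were at or above 1 TPM, from 4.68 to 79.6 TPM, led by STEAP3, a ferrireductase, with a mean of 79.6 TPM, and by the DNA damage recognition factors XPC with 47.5 ± 6.71 TPM and DDB2 with 46.7 ± 4.91 TPM (SD, n = 3 each). All 7 secreted and matrix targets were too, and GDF15 was the second lowest of them, far below SERPINB5 (maspin) with 1202 ± 103 TPM, THBS1 (thrombospondin 1) with 732 ± 78.8 TPM and CCN2, a matrix-associated growth factor, with 54.6 ± 6.24 TPM (SD, n = 3 each).

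**Figure D3:**
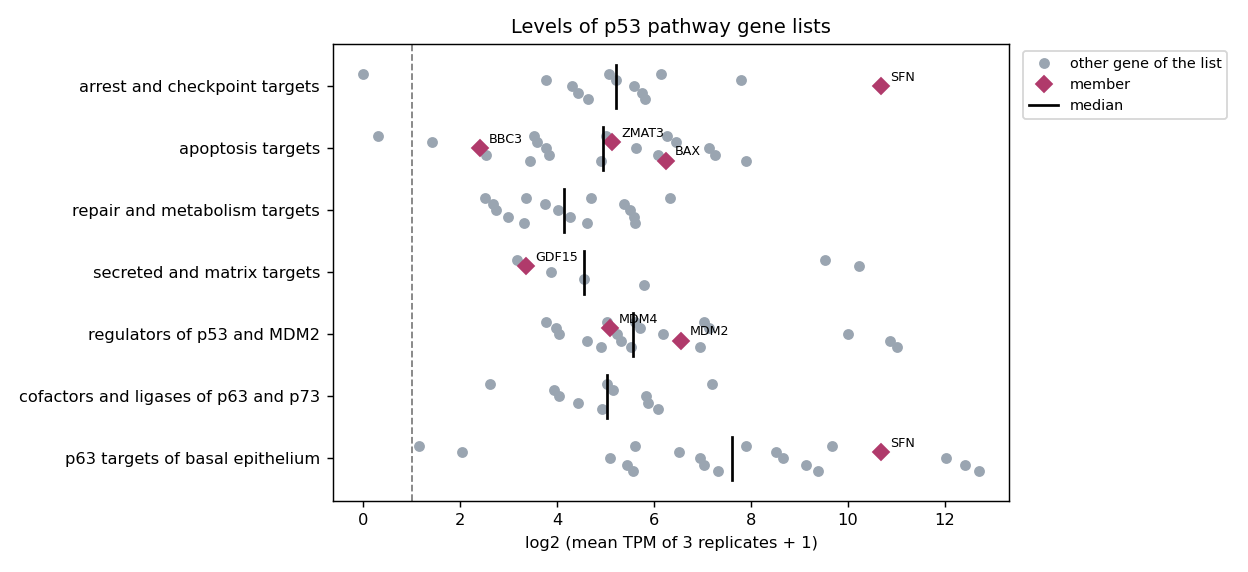
Mean level, as log2 of TPM + 1, of the genes in 7 lists of the p53 and p63 pathways, with members as red diamonds, other genes as grey circles, the median of each list as a black bar and 1 TPM as a dashed line. SFN lies above every other arrest target, BBC3 and GDF15 lie near the low end of their lists, and BAX and MDM2 lie above the medians of theirs.

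To see whether a member varied more than the sampling of reads allows, the reads of each gene were tested against equal TPM in the 3 replicates by a chi-square test over 15802 genes with at least 15 reads, with Benjamini-Hochberg adjustment over all of them. The test sees counting error only and not the spread between cultures or libraries. It called 6 of the 9 members unequal, at an adjusted p under 0.05, where it called 54.3% of all genes tested, and 65.3% of protein-coding genes at or above 1 TPM, so the share among the members was near the background. In 8 of the 9 members replicate 3 was the lowest, as in 78.5% of protein-coding genes at or above 1 TPM. When TPM was rescaled so that nuclear protein-coding genes had the same sum in each replicate, 3 of the 9 members were called, against 32.4% of all genes tested and 37.5% of protein-coding genes at or above 1 TPM, and 5 of 9 were lowest in replicate 3, against 42.8%. The 3 called after rescaling were SFN with an adjusted p of 1.1e-19, MDM4 with 1.6e-12 and ZMAT3 with 0.0019. TP63, MDM2 and BAX were called only on the deposited scale, and after rescaling had adjusted p values of 0.066, 0.24 and 0.93. TP73, GDF15 and BBC3, the members with the fewest reads, were called on neither scale. BBC3 had the largest coefficient of variation, 29.7%, and an adjusted p of 0.063 on the deposited scale and 0.24 after rescaling, so its spread was not distinguishable from counting error at this depth. On the deposited scale some calls rested on 1 replicate: without replicate 3 the adjusted p was 0.083 for SFN and 0.93 for BAX, without replicate 2 it was 0.80 for MDM4 and 0.025 for BBC3, and without replicate 1 it was 0.96 for ZMAT3.

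Of the 3 members called after rescaling, MDM4 had the widest spread, with a coefficient of variation of 12.9% against 7.01% for SFN and 7.15% for ZMAT3. After rescaling it was measured at 35.6, 46.2 and 40.9, with replicate 2 the highest and replicate 1 the lowest, while MDM2 was at 117, 111 and 114 on the same scale. On the deposited scale MDM4 was 1.27-fold higher in replicate 2 than in replicate 1, and 97.7% of protein-coding genes at or above 10 TPM had a lower ratio of these replicates. For ZMAT3 the rescaled values were 43.4, 38.7 and 44.4, with replicate 2 the lowest. For SFN they were 2037, 2133 and 1856, so that replicate 3 remained the lowest. The median coefficient of variation of the 9 members was 11.8% on the deposited scale and 5.64% after rescaling, against 11.8% and 7.78% for protein-coding genes at or above 1 TPM.

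**Figure D4:**
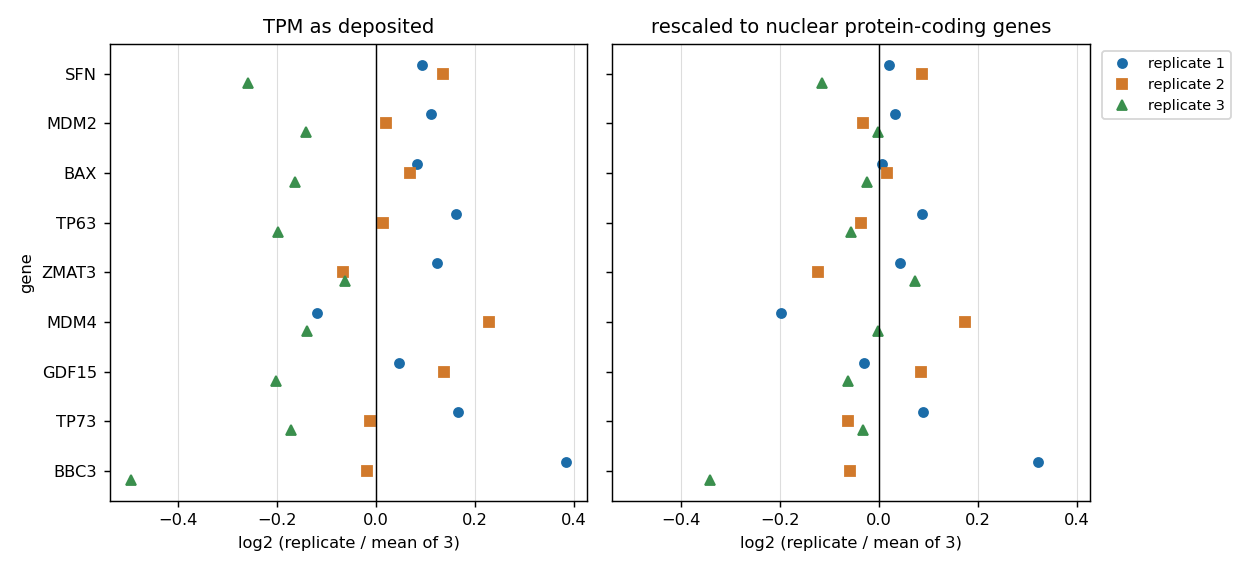
Deviation of each replicate from the mean of the 3 replicates, as log2, for the TPM as deposited (left) and rescaled to nuclear protein-coding genes (right). On the left replicate 3 (green triangles) lies lowest for 8 of 9 genes. On the right 5 remain so, and BBC3 in replicates 1 and 3 lies farthest from 0, followed by MDM4 in replicates 1 and 2.

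Levels of different genes can be compared only through the length that reads are divided by, and the deposited values use the longest transcript of a gene. This weighs most on BAX, whose longest transcript has 1358 bases and whose canonical transcript has 795. With reads divided by canonical length, BAX was at 103 ± 8.42 TPM and MDM2 at 75.4 ± 5.73 TPM (SD, n = 3 each), so the order of both turned round. With the union of all exons, BAX was at 52.0 ± 6.20 TPM and MDM2 at 111 ± 12.5 TPM (SD, n = 3 each). BAX also stayed above TP63 on these scales, with means of 40.6 and 43.9 TPM for TP63. TP63, TP73, MDM2, MDM4, SFN, BBC3 and ZMAT3 have canonical transcripts equal to the longest, and the canonical scale lowered all 7 to between 0.815 and 0.818 of the deposited level. SFN stayed the highest member and BBC3 the lowest on each of the 3 scales.

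**Figure D5:**
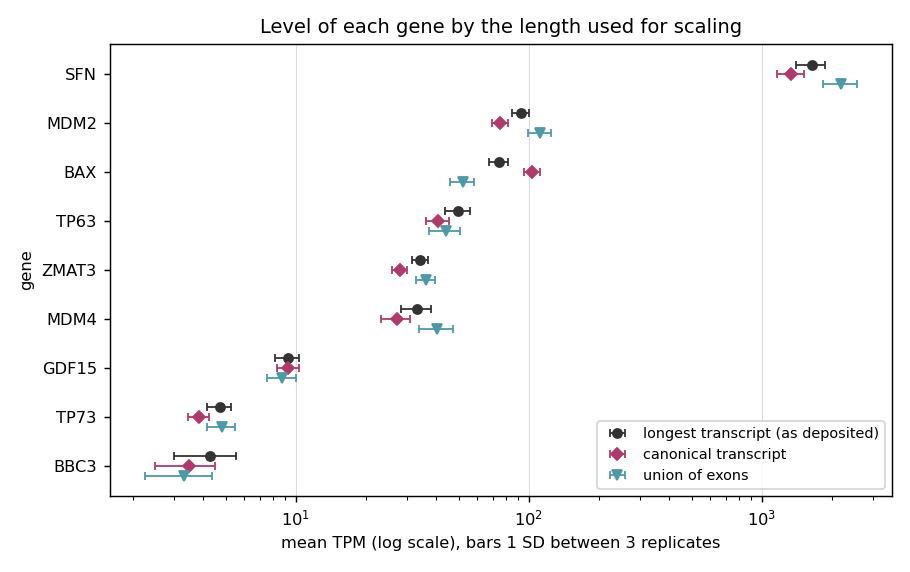
Mean TPM on a log axis, with bars of 1 SD between 3 replicates, of each gene when reads are divided by the longest transcript as deposited (black circles), the canonical transcript (red diamonds) or the union of exons (blue triangles). BAX lies below MDM2 in the deposited values and above it with the canonical length, while SFN stays highest and BBC3 lowest on every scale.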

How the data were processed

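Total RNA of MCF10A cells with the empty vector was sequenced in 3 replicates after depletion of ribosomal RNA. The authors aligned reads to hg38, quantified genes in the Seq2science workflow and deposited 1 table with the TPM of 62754 genes per replicate, not pooled. STAR, fastp and MultiQC are named in the submitters' processing notes, while strand use in counting and the gene annotation are not given in the sources used here. Library names paired each column with its sample.

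Of the genes, 62700 were found in GENCODE release 44 by Ensembl identifier. TPM times the length of the longest transcript, less 1 base per exon, was divided by its smallest value above 0, which gave whole reads within 0.01 for 100% of values. The test of replicates is a chi-square test with 2 degrees of freedom. A gene with 0 reads was given a limit of 3 reads. The members and the 15 gene lists, with 153 genes, were chosen with earlier results of these data known. Named are all members, and of each list the 3 genes with the highest mean, those with 0 reads and those with replicates on both sides of 1 TPM. PPM1D, BAK1, PMAIP1, YWHAH, MUC1, ESR1, PGR and KRT19 fall outside this rule and were chosen after their values were seen. 2 genes of the p53 target lists are not reported here and were left out of the counts, and the rule was applied to the rest. FOXA1, the gene with replicates on both sides, had 1.19, 0.790 and 1.34 TPM. Further highest genes by this rule are KRT17 with 2669 TPM, PDGFRB with 0.271 and PTPRC with 0.0728. No genes are named for likeness of pattern, since 3 replicates of 1 condition give none.

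Alternatives covered the scaling, the length, the cutoff, the summary, the minimum of reads, the pseudocount of 1 against 0.1, and each replicate left out. The scripts were tested on simulated data. Python 3.11.15 was used with numpy 2.4.6, pandas 2.3.3, scipy 1.17.1, statsmodels 0.14.6 and matplotlib 3.10.9.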

Additional observations from a re-analysis of the deposited data

How the results depend on the processing

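No paired analysis was possible because there was only 1 group of samples. All 9 members were at or above 1 TPM under every alternative tried, with cutoffs of 0.5 and 2 TPM included. The median level of 34.1 TPM was 42.2 with TPM rescaled to nuclear protein-coding genes, 27.9 with canonical lengths and 40.4 with the union of exons, and between 34.4 and 34.9 when 1 replicate was left out. The number of members with unequal TPM was 6 of 9, against 54.3% of all genes tested, and 3 after that rescaling, against 32.4%. It was 6 with a minimum of 30 reads or of 1 read, against 59.9% and 31.7% of the genes tested. Without replicate 1, 2 or 3 it was 5, 6 and 4, against 46.7%, 46.7% and 21.3% of the genes tested. Without replicate 3, SFN and BAX were no longer called, with adjusted p of 0.083 and 0.93. Without replicate 2 MDM4 was not, with 0.80, and BBC3 was, with 0.025, and without replicate 1 ZMAT3 was not, with 0.96. The 6 pairs of neighbours apart were 6 or 7 under the alternatives, but MDM2 to BAX reversed with canonical lengths, from 0.31 to -0.45 on the log2 scale, which follows from the length of BAX. The log2 ratio of TP63 to TP73 was 3.19 with the union of exons, that of SFN to the other 14-3-3 genes -0.30 with it, and that of BAX to BBC3 4.93 with canonical lengths. With 1 replicate left out these lay between 3.39 and 3.41, between -0.91 and -0.78 and between 4.02 and 4.33, and MDM2 to MDM4 between 1.37 and 1.59. Depth limits BBC3, GDF15 and TP73, with 121, 208 and 372 reads in all.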

Other observations

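Of the 20 regulators of p53 and MDM2, 10 were highest in replicate 2, MDM4 among them, as were 46.3% of protein-coding genes at or above 1 TPM. MDM2, USP7 and ATR were highest in replicate 1. The genes of this paragraph were chosen after their values were seen. EP300, an acetyltransferase that p53 recruits, was measured at 14.6, 19.8 and 11.7 TPM in replicates 1, 2 and 3, CREBBP, its close relative, at 40.1, 46.4 and 30.6 TPM, and HUWE1, a ubiquitin ligase that targets p53, at 132, 145 and 111 TPM. The chi-square test with Benjamini-Hochberg adjustment called these 3 unequal also after rescaling, with adjusted p of 4.3e-13, 3.2e-17 and 4.8e-22. After rescaling it called 11 of the 20 genes of this list, 32.4% of all genes tested and 37.5% of protein-coding genes at or above 1 TPM. A counting test calls genes with many reads more readily, and this list was chosen with earlier results known. FAT2, a cadherin of the p63 list, was measured at 86.1, 113 and 71.6 TPM.

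The genes of this paragraph were also chosen after their values were seen. BIK, a BH3-only gene of the BCL2 family, was highest in replicate 3, with 5.62, 5.46 and 8.72 TPM from 28, 28 and 37 reads, and its adjusted p was 0.15 on the deposited scale and 0.052 after rescaling. TP53AIP1, a target named for apoptosis and known from skin, was measured at 1.34, 2.13 and 1.57 TPM from 22, 36 and 22 reads, and its replicates were not told apart from counting error, with an adjusted p of 0.27 on the deposited scale.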
